A study of Schmidtea mediterranea with 96 samples.

Results

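In small regenerating fragments of the planarian *Schmidtea mediterranea*, 204 of 36035 transcripts were at their lowest 60 or 72 hours after amputation. They were chosen from the mean FPKM (reads per kilobase of transcript per M reads of the library) of the 4 libraries at each time. L, the log2 of (mean FPKM at a later time + 1) over (mean FPKM at 0hr + 1), was taken at each of 16 later times, and the time at which L was farthest from 0 was called the best time of a transcript. A member had its best time at 60hr or 72hr, an L of -1 or less there, and a mean of at least 2 FPKM at 0hr. The best time was 60hr for 86 members and 72hr for 118. All values of the time course therefore had a part in choosing the members, and they are given below as a description. Nothing is read from the limma counts that stand beside them at 60hr and 72hr. The sorted cells and irradiated animals had no part in the choice, and differences there were tested.

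All animals were wild type and had been starved for at least a week. The groups used are cells sorted live on a DNA dye as X1, X2 or Xins (3 libraries each), whole animals collected 24 hours after 10000 rads or left untreated (3 libraries each, 5 worms per library), cells sorted after fixation as PIWI-1 high, low or negative (4 libraries each), and small pieces amputated from one flank and collected whole at 17 times between 0hr and 14 days (4 libraries each). An asexual strain (CIW4) and a sexual strain (S2F8) were kept, and the labels do not say which library came from which. The labels also do not say whether the libraries of a group came from separate batches of animals, so every p-value measures the spread between these libraries only. The files name transcripts by identifier without gene names, so no role can be given to a member, and neither the tissue nor the sorted populations could be checked against marker genes.

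Planarians rebuild missing parts from neoblasts, dividing adult stem cells whose descendants pass through post-mitotic progenitor stages before they differentiate. X1 is a population rich in neoblasts with replicated DNA, X2 mixes smaller neoblasts with their recent progeny, and Xins holds mostly differentiated cells that survive irradiation. PIWI-1 is an Argonaute-family protein of neoblasts that lasts for some time in their progeny, so PIWI-1 high, low and negative cells run roughly in the order of stem cells, progeny and differentiated cells.

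Library totals, recovered from the steps between low FPKM values, were 9.54 to 20.2 M reads for the fragments, 33.8 to 40.1 M for the X cells and whole animals and 24.2 to 44.3 M for the PIWI-1 sorts. Fewer transcripts reached 1 FPKM in the 6hr libraries, 16136 ± 163, than in the 0hr libraries, 18832 ± 466 (SD, n = 4). The part of this lower number in the values of the members at 6hr was not tested. The number of members was 213 with the 3hr and 6hr libraries left out, and all 204 were among them.

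The members were lower in small steps over the first 2 days and came back in small steps. Their median L was -0.13 at 1hr, -0.25 at 3hr, -0.38 at 6hr, -0.28 at 9hr and -0.51 at 12hr. It reached -0.91 at 24hr, -1.14 at 36hr and -1.28 at 48hr, and stood at -1.41 at both 60hr and 72hr. The return ran from -1.26 at 4 days and -1.01 at 5 days through -0.86 at 6 days and -0.80 at 7 days to -0.47 at 10 days and -0.35 at 14 days. Over the 15242 transcripts with at least 2 FPKM at 0hr the median L was 0.16 at 72hr and 0.22 at 14 days. In whole fragments, fewer cells of a type and less RNA per cell cannot be told apart.

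A few members carried much of the RNA of the set. The FPKM of all 204 summed to 7267 ± 625 at 72hr, against 53812 ± 7685 at 0hr (SD, n = 4), or 0.884% ± 0.0595 against 6.18% ± 0.857 of all FPKM in the table. The 2 most abundant members held 69.6% ± 1.79 of the sum at 72hr and 47.4% ± 2.16 at 0hr, and the other 202 summed to 2205 ± 169 FPKM at 72hr, against 28380 ± 5013 at 0hr (SD, n = 4). The sum over all 204 was 19101 ± 6555 at 24hr, 8133 ± 2251 at 60hr, 7805 ± 1652 at 4 days, 13964 ± 2619 at 7 days, 29186 ± 6530 at 10 days and 33624 ± 7765 at 14 days. The 14-day libraries ran from 23522 to 41529 and did not overlap with those at 0hr, which ran from 47229 to 62543. The 2 most abundant members held 40.9% ± 4.29 of the sum at 14 days, and the other 202 summed to 20121 ± 5841 FPKM (SD, n = 4). The sums follow the abundant members and do not tell how many members had come back. Single members at 0hr had from 2.01 to 14273 FPKM, with a median of 18.8.

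**Figure D1:**
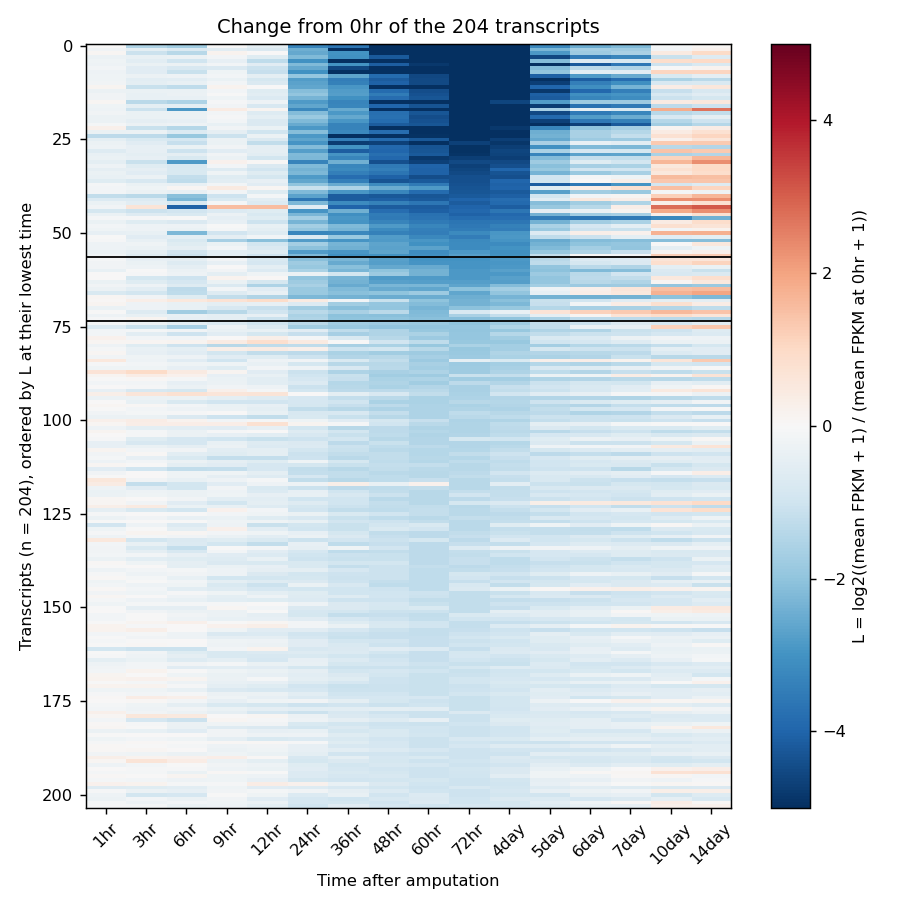
L of each of the 204 transcripts (rows, ordered by L at their lowest time) at the 16 later times (columns), blue below and red above 0hr, with the color scale limited to values between -5 and 5. The black lines set off the 57 transcripts at an L of -3 or less, the 17 between -3 and -2 and the 130 above -2; the top block is darkest from 48hr to 4 days and turns red in many rows at 10 and 14 days.

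The lowest point was shallow for most members, so the exact hour is loosely fixed. L at the lowest and at the next lowest time differed by less than 0.1 for 110 of 204 members. At their best time 195 of 204 had no library overlapping with those at 0hr. At 60hr, 189 members were below 0hr in every library, and 13.1% of all transcripts with at least 2 FPKM at 0hr were. At 72hr, 194 members were, and 13.2% of these transcripts. With limma, 180 of the 204 members were called lower at 60hr and 173 at 72hr (adjusted p under 0.05 and at least 2-fold), and none was called higher. The background was 2.65% of the 24546 transcripts tested lower and 3.45% higher at 60hr, and 2.3% lower and 3.53% higher at 72hr. Both times are set against the same 0hr libraries, and the rule used these contrasts, so nothing is read from these counts.

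At the edge of the rule, the members closest to the limit had an L of -1.001, -1.003 and -1.006, and the transcripts just outside had -0.995, -0.991 and -0.988. The members with the least RNA had 2.01, 2.13 and 2.13 FPKM at 0hr, and those just outside had 1.99, 1.81 and 1.75. The set also depends on how libraries are combined and scaled. With the median of the 4 libraries in place of the mean, 156 transcripts met the rule, of which 122 were among the 204. Without replicate 3 of 60hr, 359 transcripts met it, of which 201 were among the 204. With median-ratio scaling of the libraries, 278 met it, of which 186 were among the 204.

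The depth of the low point divided the members, and the limits used here were chosen after seeing it. L was -3 or less at the best time, an 8-fold or larger reduction on the FPKM + 1 scale, for 57 members. Another 17 lay between 4-fold and 8-fold, and 130 lay between 2-fold and 4-fold. An L of -3 needs at least 7 FPKM at 0hr, so the classes also differ in abundance by construction, with a median of 58.5 FPKM at 0hr for the 57 deep members and 11.8 FPKM for the 130 shallow ones. Of the 57 deep members 41 were lowest at 72hr, and of the 130 shallow ones 67 were.

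The median of the deep members stayed within 2-fold of 0hr until 12hr; they were far below it from 24hr to 7 days and were back by 10 days for the most part. Their median L was -0.60 at 12hr, -2.31 at 24hr, -3.04 at 36hr, -3.86 at 48hr, -4.28 at 60hr, -4.89 at 72hr and -4.64 at 4 days. It was then -2.36 at 5 days, -1.73 at 6 days and -1.64 at 7 days, and stood at 0.21 at 10 days and 0.56 at 14 days. An L of -1 was first passed at 24hr by 32 of the 57. Others passed it earlier, 2 at 1hr, 8 at 3hr, 10 at 6hr, 1 at 9hr and 3 at 12hr. Not all of these stayed there, and at 12hr 7 of the 57 were at -1 or less. At 10 days 26 of the 57 came back above it after their low point. At 14 days 36 of the 57 were above their level at 0hr, 17 of them by 2-fold or more, while 9 were still at an L of -1 or less.

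SMED30032114 was the member with the lowest L at 60hr, -6.76. It had 1.13, 0.453, 1.37 and 1.34 FPKM in the 60hr libraries, against 117, 188, 353 and 234 FPKM at 0hr. The 2 groups were far apart, with 18 reads in all at 60hr and 4122 at 0hr. At 24hr it had 31.8, 83.8, 20.5 and 24.8 FPKM, and at 14 days 272, 334, 270.4 and 154 FPKM, which overlapped with 0hr. SMED30034731, the next lowest of the members with their best time at 60hr, had an L of -6.36. It had 2.07, 1.35, 1.85 and 1.69 FPKM at 60hr, against 77.7, 224, 336 and 259 FPKM at 0hr. Its 14-day libraries, at 566, 451, 337 and 453 FPKM, all lay above the highest of 0hr. At 5 days both transcripts split into a high and a low pair of libraries: SMED30032114 had 81.7, 3.88, 88.3 and 3.59 FPKM, and SMED30034731 had 88.0, 15.3, 89.2 and 4.02 FPKM in the same order.

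SMED30011668 had the lowest L of all members, -6.85 at 72hr. It had 0, 0.431, 0 and 0.703 FPKM at 72hr, against 126, 9.13, 224 and 231 FPKM at 0hr. Only 5 reads lay behind the 72hr values, so the depth of this low point is loosely known. Its mean returned to 159 ± 85.1 FPKM at 14 days (SD, n = 4), against 147 ± 104 FPKM at 0hr. SMED30012932, with an L of -6.67, had 0, 0.165, 0.218 and 0.0599 FPKM at 72hr, against 92.8, 1.14, 183 and 173 FPKM at 0hr. For both transcripts replicate 2 of 0hr stood far below the other 3 libraries of that time. They also shared the low library at 9hr, replicate 3, with 1.65 FPKM of SMED30011668 and 0.459 FPKM of SMED30012932, where the other 9hr libraries held 38.0 to 275 and 27.3 to 252 FPKM.

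**Figure D2:**
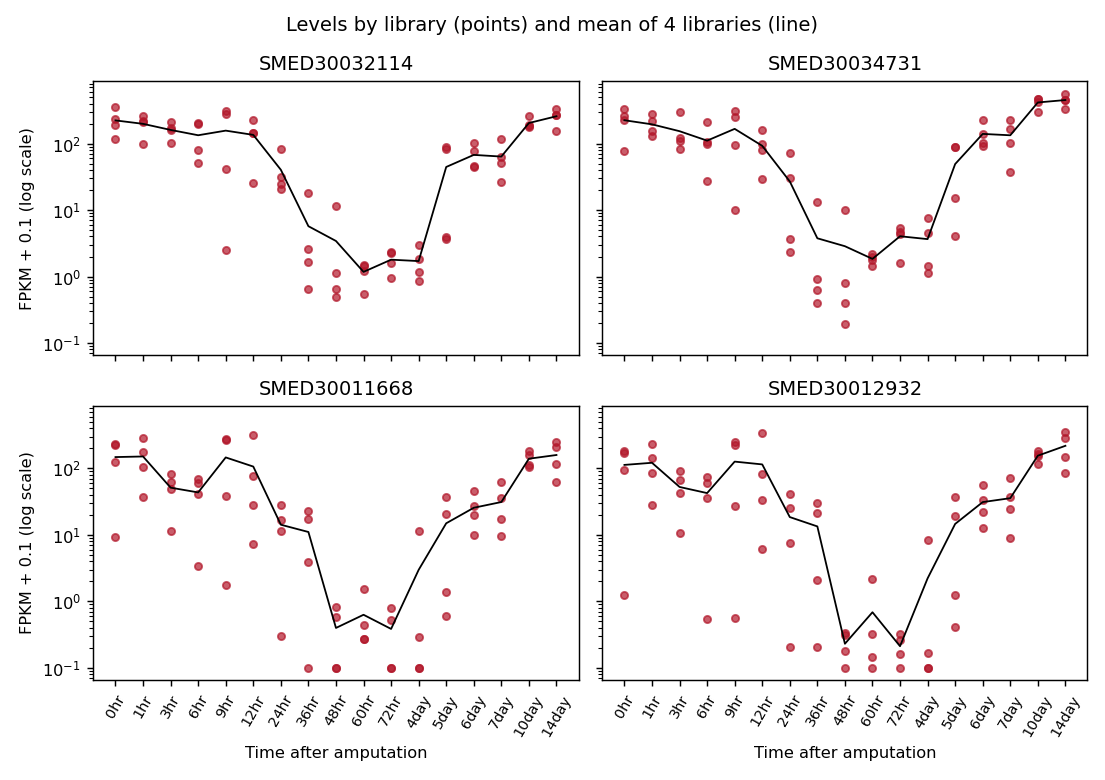
FPKM + 0.1 on a log axis against time after amputation for the 2 transcripts with the lowest L among members with their best time at 60hr (upper panels) and the 2 among those with it at 72hr (lower panels); points are libraries and the line joins the means of 4 libraries. All 4 stand near or below a few FPKM between 48hr and 4 days, and single libraries at 9hr, 36hr and 48hr lie far from the others of their time.

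The libraries of a time also differed for the deep members as a group. For each library, the median over the 57 deep members of log2(FPKM + 1) was set against their 0hr means. It ran from -0.59 to 0.56 in the 0hr libraries, from -2.65 to 0.35 at 9hr, from -3.81 to -1.53 at 24hr and from -4.72 to -1.89 at 36hr. This median was lowest in replicate 3 at 9hr, but in replicate 1 at 0hr, where replicate 2 stood at 0.0003. It ran from -4.87 to -3.84 at 60hr and from -5.09 to -4.64 at 72hr. These 2 narrow ranges are limited by the scale and by the choice of members, since 26 of the 57 averaged under 1 FPKM at 60hr and 30 did at 72hr, and log2(FPKM + 1) cannot go below 0. The libraries ran from -4.86 to -1.43 at 5 days and from -0.31 to 0.97 at 14 days. After subtraction of each time's mean, pairs of deep members had a median correlation of 0.60 over the 68 libraries, with the middle of the pairs between 0.45 and 0.75. The median was 0.21 for the 17 middle members, 0.06 for the 130 shallow ones and 0.05 for all transcripts with at least 2 FPKM at 0hr. Pairs of transcripts share libraries and library depth, so these correlations are a description.

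**Figure D3:**
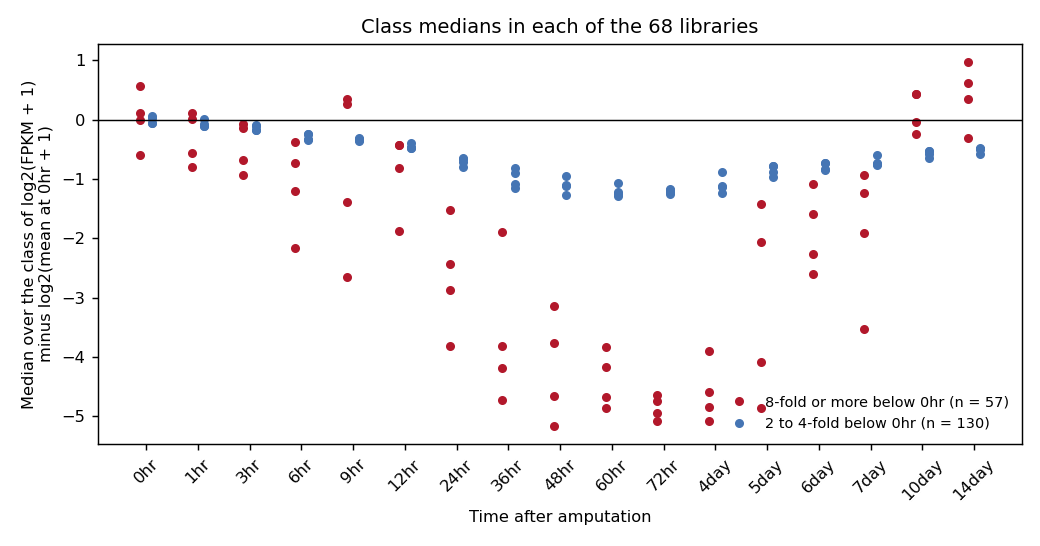
Median over the 57 deep members (red) and the 130 shallow members (blue) of log2(FPKM + 1) minus the log2 of the 0hr mean + 1, in each of the 68 libraries, against time after amputation. The red points spread widely within a time, from -2.65 to 0.35 at 9hr and from -4.86 to -1.43 at 5 days, while the blue points of a time lie close together.

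The time of the low point of the deep members depended on the use of the mean. By the median of the 4 libraries, 22 of the 57 were lowest at 4 days, 15 at 72hr, 9 at 48hr and 6 at 60hr, and 21 of the 57 still met the rule.

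The 130 shallow members had a smoother course. Their median L was -0.44 at 12hr, -0.73 at 24hr, -0.94 at 36hr, -1.07 at 48hr, -1.21 at 60hr, -1.17 at 72hr and -1.03 at 4 days, and it was still -0.52 at 14 days. At 14 days 24 of the 130 were above their level at 0hr. Since their low point lies between -1 and -2 by definition, an L of -1 is close to it, and 33 of them passed it at 36hr, 24 at 48hr, 27 at 60hr and 16 at 72hr. Among all 204, 22 had not come back above -1 by 14 days. The 17 middle members had a median L of -2.35 at 60hr, -2.59 at 72hr and 0.38 at 14 days.

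Members that are named below for their levels in sorted cells had varied courses in the fragments. SMED30014570, a deep member, had 26.8 to 89.4 FPKM at 0hr, 0, 0, 0.375 and 0 FPKM at 72hr, and 185 to 561 FPKM at 14 days, above every 0hr library. SMED30013562, also deep, had 17.9 to 61.5 FPKM at 0hr, 0, 0, 0 and 0.218 FPKM at 72hr, and 29.3 to 86.4 FPKM at 14 days, within reach of 0hr. Among the shallow members, SMED30029134 had 59.1 to 74.2 FPKM at 0hr, 15.0 to 22.6 FPKM at 72hr, and 20.6 to 35.6 FPKM at 14 days. SMED30029134 had thus not come back in any library, and neither had SMED30008091, with 125 to 163 FPKM at 0hr, 37.4 to 61.4 FPKM at 72hr and 55.3 to 71.0 FPKM at 14 days. SMED30019451 did come back, with 118 to 167 FPKM at 0hr, 61.7 to 72.9 FPKM at 60hr and 165 to 187 FPKM at 14 days. SMED30015704 went above its start before it went below it. It had 7.51, 6.40, 5.96 and 6.86 FPKM at 0hr, 11.2, 14.5, 11.8 and 13.8 FPKM at 12hr, 1.20, 0.937, 1.07 and 1.08 FPKM at 72hr and 6.10, 4.82, 4.63 and 5.73 FPKM at 14 days. All 12hr libraries of SMED30015704 lay above all 0hr libraries, and all 72hr libraries below them.

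The deep members were shorter transcripts than the others. Their lengths, recovered with the library totals, had a median of 655 bases, with the middle of the values between 342 and 1462 bases. The shallow members had a median of 1309 bases and all transcripts with at least 2 FPKM at 0hr a median of 1323 bases.

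In the separate experiment on sorted cells and whole animals, the deep members stood far lower in every sorted population than in whole animals. Their median level was 3.63 FPKM in X1, 20.2 FPKM in X2 and 8.83 FPKM in Xins, against 155 FPKM in untreated whole animals. Over all transcripts with at least 2 FPKM at 0hr the medians were 2.36, 4.21, 7.16 and 12.0 FPKM in the same order. The deep medians in the sorts were thus above those of all such transcripts. All 3 sorted populations were more than 4-fold below untreated animals for 52 of the 57 deep members, or 91.2%, which held for 25.6% of all transcripts with at least 2 FPKM at 0hr. Of the 130 shallow members it held for 58, or 44.6%. Their median levels were 0.190 FPKM in X1, 0.885 FPKM in X2 and 3.55 FPKM in Xins, against 11.0 FPKM in untreated animals. Among the 3 sorts, 51 of the 57 deep members were highest in X2 (89.5%, against 15.6% of all such transcripts), and 111 of the 130 shallow members were highest in Xins (85.4%, against 66.0%). FPKM are relative to the total of each library, so a level here is a share of the RNA of a population.

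**Figure D4:**
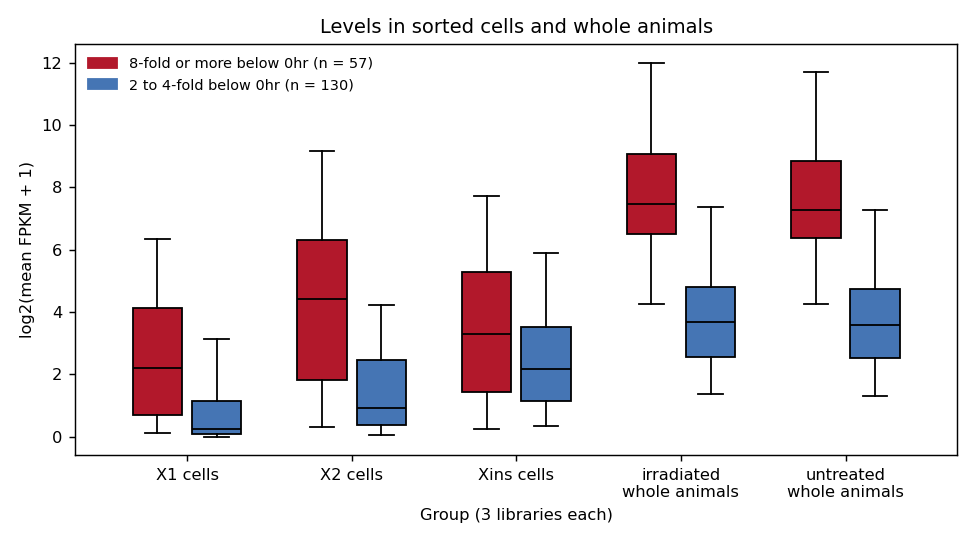
Levels, as log2(mean FPKM + 1) over 3 libraries, of the 57 deep members (red) and the 130 shallow members (blue) in the X1, X2 and Xins sorts and in irradiated and untreated whole animals; boxes span the quartiles with the median as a line, and whiskers run from the 5th to the 95th percentile. Both classes are lower in every sort than in whole animals, and among the sorts the red median is highest in X2 and the blue median in Xins.

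What separates dividing neoblasts from other cells is asked by setting X1 against Xins, and here most members were lower in X1. Of the 159 members that passed the filter of 1 FPKM in 3 libraries, 116 were called lower and 2 higher in X1 (limma on log2(FPKM + 1), adjusted p under 0.05 and at least 2-fold). Of all 15347 transcripts tested, 39.9% were lower and 8.41% higher. Of the 50 deep members tested 26 were lower and none higher, with a median log2 difference of -1.01. Of the 95 shallow ones 80 were lower and 2 higher, with a median of -1.95. The median log2 difference was -1.57 for the 159 members tested and -0.68 for all transcripts tested. In the fit without the filter it was -1.25 for the 204 and -0.17 for all transcripts. Median-ratio scaling moved the median of all transcripts to -0.00 and that of the members to -1.13, with 86 of 157 members tested lower and 5 higher, beside 24.9% lower and 22.5% higher among all transcripts.

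SMED30019538 was among the members farthest below Xins. It had 0.147, 0.0758 and 0.149 FPKM in X1, against 177, 36.1 and 41.5 FPKM in Xins, a log2 difference of -5.86 ± 0.46 (SE, adjusted p = 4.39e-07 with limma). The Xins libraries differed among themselves, and the lowest still stood far above all of X1. SMED30019451 had 2.76, 1.60 and 2.68 FPKM in X1, against 124, 114 and 110.1 FPKM in Xins, a log2 difference of -5.14 ± 0.17 (SE, adjusted p = 7.82e-10 with limma). The 2 members called higher were SMED30030696 and SMED30029170, both shallow. SMED30030696 had 59.0, 46.0 and 44.3 FPKM in X1, against 12.4, 10.5 and 9.97 FPKM in Xins, a log2 difference of 2.08 ± 0.15 (SE, adjusted p = 2.23e-07 with limma). SMED30029170 had 23.5, 19.8 and 21.1 FPKM in X1, against 7.34, 5.54 and 5.12 FPKM in Xins, a log2 difference of 1.69 ± 0.17 (SE, adjusted p = 2.95e-06 with limma).

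X2 against Xins divided the members by the depth of their low point. Of the 159 tested, 33 were called higher and 60 lower in X2, beside 1.69% higher and 18.2% lower among all transcripts tested. Among the 50 deep members tested 31 were higher and 3 lower, and among the 95 shallow ones tested 1 was higher and 50 lower. With filtered members included, the median log2 ratio of group means + 1 was 1.03 for the deep and -0.77 for the shallow members. By this ratio 51 of the 57 deep members were above 0. Among those tested the median log2 difference was 1.14 for the deep and -1.05 for the shallow members. The median of all transcripts tested was -0.27, and 0.09 with median-ratio scaling, under which 38 of 157 members were higher and 47 lower, beside 5.4% and 11.7% of all transcripts. This comparison and the one before it share the Xins libraries.

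SMED30013562, a deep member, had 17.8, 25.2 and 23.2 FPKM in X2, against 4.88, 3.86 and 3.41 FPKM in Xins, a log2 difference of 2.19 ± 0.16 (SE, adjusted p = 1.46e-06 with limma). SMED30017100, also deep, had 95.3, 119 and 141 FPKM in X2, against 25.2, 33.9 and 30.3 FPKM in Xins, a log2 difference of 1.95 ± 0.30 (SE, adjusted p = 0.000275 with limma). In neither did the libraries of X2 and Xins overlap. Among shallow members the direction was the other one. SMED30022162 had 6.48, 6.56 and 5.09 FPKM in X2, against 147, 59.1 and 56.0 FPKM in Xins, a log2 difference of -3.51 ± 0.30 (SE, adjusted p = 3.27e-06 with limma). SMED30012615 had 2.12, 2.00 and 1.17 FPKM in X2, against 45.6, 26.8 and 22.2 FPKM in Xins, a log2 difference of -3.51 ± 0.24 (SE, adjusted p = 8.45e-07 with limma). In both, replicate 1 of Xins was the highest library.

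X1 stood below X2 for most members. Of the 159 tested, 83 were called lower and 2 higher in X1, beside 19.2% lower and 5.39% higher among all transcripts tested. Of the 50 deep members tested 43 were lower and none higher, and all 57 had a lower mean in X1. Of the 95 shallow members tested 35 were lower and 2 higher. With filtered members included, the median log2 ratio of group means + 1 was -1.94 for the deep and -0.51 for the shallow members. Among those tested the median log2 difference was -2.13 and -0.71, and it was -0.28 for all transcripts tested. Median-ratio scaling moved that of all transcripts to -0.03, with 76 of 157 members lower and 4 higher, beside 15.3% lower and 10.5% higher among all transcripts.

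SMED30011668, the deep member with the lowest L, had 8.05, 15.3 and 5.75 FPKM in X1, against 70.5, 109 and 90.3 FPKM in X2, a log2 difference of -3.17 ± 0.33 (SE, adjusted p = 1.06e-05 with limma). SMED30008091, a shallow member, had 4.90, 3.42 and 4.06 FPKM in X1, against 89.1, 73.7 and 54.9 FPKM in X2, a log2 difference of -3.83 ± 0.18 (SE, adjusted p = 3.88e-08 with limma). Both were below X2 in every library. The 2 members higher in X1 than in X2 were again SMED30030696 and SMED30029170. SMED30030696 stood at 59.0, 46.0 and 44.3 FPKM in X1, against 16.7, 15.9 and 12.6 FPKM in X2, and differed by 1.66 ± 0.15 (SE, adjusted p = 3.75e-06 with limma). SMED30029170 stood at 23.5, 19.8 and 21.1 FPKM in X1, against 12.0, 9.03 and 8.11 FPKM in X2, and differed by 1.08 ± 0.17 (SE, adjusted p = 0.000214 with limma). Without replicate 3 of X2 the difference of SMED30029170 was 0.98, under the 2-fold limit, and 1 member was called higher.

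A dose that removes neoblasts was followed by small differences in the members 24 hours later. None of the 199 members that passed the filter was called higher or lower in irradiated animals with limma at 2-fold, beside 0.168% higher and 1.74% lower among 19651 transcripts tested. At an unadjusted p under 0.05 with limma, 81 were higher and 17 lower, beside 18.4% and 24.5% of all transcripts tested. At an adjusted p under 0.05 without the 2-fold limit 55 were higher and 16 lower, beside 12.8% and 19.6%. The log2 differences ran from -0.51 to 0.88. Their median was 0.13, against -0.02 for all transcripts. In every irradiated library 77 of the 199 members stood above every untreated one, beside 19.9% of all transcripts tested, and 19 stood below, beside 27.0%.

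The deep members lay within a narrow range after irradiation. The log2 ratios of their group means + 1 ran from -0.37 to 0.40, and those of the shallow members from -0.51 to 0.87. From the 5th to the 95th percentile the log2 differences were -0.05 to 0.38 for the deep members and -0.60 to 0.34 for all transcripts tested. Of the 57 deep members, 54 had a higher mean in irradiated than in untreated animals, with a median log2 difference of 0.22. The share of all transcripts with a higher mean was not counted. Deep members varied together in the fragments, so these 54 are not independent. The FPKM of the deep members summed to 60588, 63343 and 62228 in irradiated animals, against 51095, 48104 and 53904 in untreated animals, without overlap. SMED30011668 had 567, 567 and 570.1 FPKM in irradiated animals, against 472, 431 and 476 FPKM in untreated ones. SMED30032114 had 756, 818 and 765 FPKM in irradiated animals, against 658, 612 and 697 FPKM in untreated ones. In both the irradiated libraries stood above the untreated ones, by less than 2-fold. Of the 130 shallow members 85 had a higher and 45 a lower mean after irradiation.

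In the PIWI-1 sorts, made from fixed cells, PIWI-1 high cells held the least of both classes. The median level of the deep members was 1.13 FPKM in PIWI-1 high, 8.97 FPKM in PIWI-1 low and 11.2 FPKM in PIWI-1 negative cells, and that of the shallow ones was 0.269, 1.96 and 4.40 FPKM in the same populations. Over all transcripts with at least 2 FPKM at 0hr the medians were 4.17, 5.40 and 7.01 FPKM in these populations. Their order was thus the same, with a smaller gap. Of the 57 deep members 39 were highest in PIWI-1 low (68.4%, against 15.6% of all transcripts with at least 2 FPKM at 0hr). Of the 130 shallow ones 112 were highest in PIWI-1 negative (86.2%, against 53.6%).

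PIWI-1 high cells held less of most members than PIWI-1 negative cells. Of the 155 members that passed the filter of 1 FPKM in 4 libraries, 114 were called lower and 3 higher. Among 15896 transcripts tested 27.6% were lower and 19.7% higher. Of the 49 deep members tested 27 were lower and none higher, and of the 94 shallow ones 76 were lower and 3 higher. The median log2 difference was -1.86 for the 155 members tested and -0.17 for all transcripts tested. In the fit without the filter it was -1.43 for the 204 and -0.06 for all transcripts. With the sort number as a block in the fit 122 members were lower and 3 higher, beside 4773 and 3474 of the 15896 transcripts. SMED30019538 had 0.0740, 0.359, 0.0989 and 0.154 FPKM in PIWI-1 high, against 209, 143, 44.5 and 75.0 FPKM in PIWI-1 negative cells, a log2 difference of -6.44 ± 0.45 (SE, adjusted p = 1.13e-07 with limma). SMED30004708 had 2.43, 3.09, 1.42 and 2.61 FPKM in PIWI-1 high, against 351, 266, 92.0 and 207 FPKM in PIWI-1 negative cells, a log2 difference of -5.96 ± 0.52 (SE, adjusted p = 5.01e-07 with limma). The PIWI-1 negative libraries of both were lowest in sort number 3, still far above all of PIWI-1 high.

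Among the 3 members higher in PIWI-1 high cells was SMED30030696, the transcript that was also higher in X1. It had 23.5, 26.4, 10.8 and 17.1 FPKM in PIWI-1 high, against 9.83, 6.47, 2.86 and 5.27 FPKM in PIWI-1 negative cells, a log2 difference of 1.55 ± 0.41 (SE, adjusted p = 0.00466 with limma). SMED30015704 had 10.4, 12.3, 6.26 and 6.95 FPKM in PIWI-1 high, against 4.70, 5.59, 0.664 and 3.26 FPKM in PIWI-1 negative cells, a log2 difference of 1.26 ± 0.44 (SE, adjusted p = 0.0265 with limma). This call was lost without replicate 1 or 2 of PIWI-1 high (adjusted p = 0.0698 and 0.0705 with limma) and without replicate 3 of PIWI-1 negative, where the difference was 0.83 and 1 member was called higher. Unlike SMED30030696, SMED30015704 was low in X1, at 1.37, 0.655 and 0.841 FPKM, and in Xins, at 1.54, 1.07 and 1.76 FPKM.

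Few members of either class were called higher in PIWI-1 low than in PIWI-1 negative cells, though most deep members had a higher mean there. By the mean, 39 of the 57 deep members were higher and 18 lower in PIWI-1 low, and 16 of the 130 shallow ones were higher and 114 lower. Of the 155 tested, 4 were called higher and 45 lower in PIWI-1 low, beside 13.8% higher and 18.9% lower among all transcripts tested. With the sort number as a block, which pairs these libraries, 11 were higher and 54 lower, beside 17.0% and 21.7%. Without replicate 2 of PIWI-1 negative, or without all of sort number 2, 9 were higher. Without the block, 3 of the 49 deep members tested were higher and 2 lower, and of the 94 shallow ones 1 was higher and 38 lower. The share of deep members called higher in this fit, 6.12%, was below the 13.8% of all transcripts. The deep members called with the block were not counted, so this order is known only without the pairing. With filtered members included, the median log2 ratio of group means + 1 was 0.63 for the deep and -0.74 for the shallow members. Among those tested the median log2 difference was 0.62 and -0.98, and it was -0.06 for all transcripts tested. SMED30013562 had 29.7, 3.83, 6.93 and 6.51 FPKM in PIWI-1 low, against 0, 0.507, 0 and 0.257 FPKM in PIWI-1 negative cells, a log2 difference of 3.05 ± 0.51 (SE, adjusted p = 0.000389 with limma). This deep member was also higher in X2 than in Xins. SMED30008978, a shallow member, had 35.8, 48.2, 17.6 and 24.0 FPKM in PIWI-1 low, against 11.7, 14.9, 2.94 and 5.51 FPKM in PIWI-1 negative cells, a log2 difference of 1.83 ± 0.48 (SE, adjusted p = 0.00787 with limma).

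The members lower in PIWI-1 low than in PIWI-1 negative cells were mostly shallow, 38 of the 45. SMED30019538 had 2.34, 5.20, 1.92 and 2.29 FPKM in PIWI-1 low, against 209, 143, 44.5 and 75.0 FPKM in PIWI-1 negative cells, a log2 difference of -4.75 ± 0.45 (SE, adjusted p = 1.37e-05 with limma). SMED30025566 had 2.23, 9.10, 1.76 and 4.19 FPKM in PIWI-1 low, against 96.9, 65.7, 50.1 and 97.0 FPKM in PIWI-1 negative cells, a log2 difference of -4.02 ± 0.42 (SE, adjusted p = 1.53e-05 with limma). In both, sort number 2 gave the highest PIWI-1 low library, and the groups did not overlap.

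PIWI-1 high cells also held less than PIWI-1 low cells, and no member was called higher. Of the 155 tested, 57 were called lower, beside 7.2% lower and 2.39% higher among all transcripts tested. Under the block 98 were lower and 0 higher, beside 12.9% and 3.63%. The count depended on single libraries, with 33, 27 and 37 lower without replicate 1, 3 or 4 of PIWI-1 high and 32 without replicate 4 of PIWI-1 low. Of the 49 deep members tested 27 were lower, and of the 94 shallow ones 27. All 57 deep members had a lower mean in PIWI-1 high, as in X1 against X2. At an unadjusted p under 0.05 with limma 104 of the 155 were lower and 2 higher, beside 15.3% lower and 5.79% higher among all transcripts tested.

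SMED30029134, a shallow member, had 1.65, 3.08, 2.11 and 3.09 FPKM in PIWI-1 high, against 26.8, 60.7, 28.0 and 37.2 FPKM in PIWI-1 low cells, a log2 difference of -3.44 ± 0.42 (SE, adjusted p = 0.000345 with limma). SMED30014570, a deep member of 159 bases, had 0.880, 0.852, 0.940 and 7.89 FPKM in PIWI-1 high, against 76.4, 32.1, 9.11 and 27.8 FPKM in PIWI-1 low cells, a log2 difference of -3.40 ± 0.82 (SE, adjusted p = 0.0143 with limma). The call of SMED30014570 was lost without a filter on low values (adjusted p = 0.0614) and without replicate 1 or 3 of PIWI-1 high or replicate 1 of PIWI-1 low (adjusted p = 0.0666, 0.0571 and 0.0655 with limma).

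**Figure D5:**
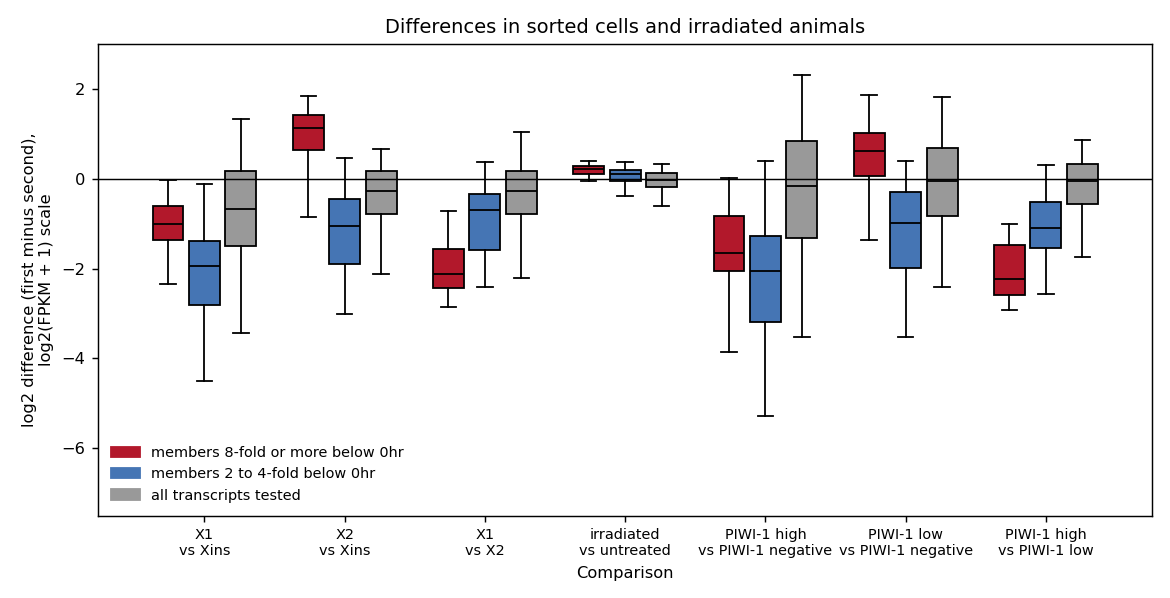
Log2 differences on the log2(FPKM + 1) scale (first group minus second) in the 7 comparisons for the tested members among the deep (red) and shallow (blue) classes and for all transcripts tested (grey); boxes span the quartiles with the median as a line, and whiskers run from the 5th to the 95th percentile. The red boxes lie above 0 for X2 against Xins, with a median of 1.14, and lowest for X1 against X2 and PIWI-1 high against PIWI-1 low, with medians of -2.13 and -2.23.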

How the data were processed

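Poly(A) RNA was sequenced, and the authors deposited 3 tables of FPKM values with 36035 transcripts and 1 column per library, 96 in all, per the labels and file headers. Bowtie2 2.2.9 and edgeR are named without a role in the submitters' processing notes, and the reference and counting method are not given in the sources used here. Whole-number lengths and library totals were recovered from the FPKM steps (99.99% or more of values whole within 0.05 reads, for 35266 transcripts with a length) and used for depth and length only.

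The members, classes and comparisons were chosen with earlier results of these data known. Differences were tested with limma 3.58.1 in R 4.3.3 (lmFit, eBayes with trend, two-sided, Benjamini-Hochberg over all transcripts tested) on log2(FPKM + 1), which understates changes of low transcripts. A transcript was tested with at least 1 FPKM in as many libraries as the smallest group, and called at an adjusted p under 0.05 and a 2-fold difference. Counts of members by the direction of 2 group means alone have no count over all transcripts beside them. X1, X2 and Xins, the whole animals, the PIWI-1 sorts and the time course each had 1 fit. The test was tried on simulated data. It recovered nearly all the changes put in, except in the PIWI-1 sorts, where it missed many. Those changes were larger than the 2-fold limit and were put only into transcripts far above the filter. Recovery of smaller changes, or of changes in low transcripts such as many members in the sorts, was not tested. Libraries with the same PIWI-1 sort number deviated together (all 12 pairs above a correlation of 0.1, median 0.67), so the number was taken, from the data, to pair them. Counts and p-values of the PIWI-1 sorts leave this pairing out unless the block is named. Named for each comparison were up to 2 called members each way with the largest difference, where libraries did not overlap and the higher group averaged 5 FPKM or more, and for the time course, by the same limits, the 2 lowest L among members with their best time at 60hr and the 2 among those at 72hr. Alternatives were other pseudocounts, filters, scaling, the block, fits of 2 groups and leaving out each library. One library without a group entered no comparison.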

Additional observations from a re-analysis of the deposited data

Results flagged for a closer look

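Of 61 sets of 4 libraries checked for a library far from the other 3, 4 held one, and chance gives about 1 in 20. The shallow members had a median of -0.583 relative to 0hr in replicate 1 at 14 days, where the other 3 libraries ran from -0.486 to -0.471. SMED30013562 stood at 29.68 FPKM in replicate 1 of PIWI-1 low, against 3.83 to 6.93 FPKM in the others. SMED30014570 stood at 7.892 FPKM in replicate 4 of PIWI-1 high, against 0.852 to 0.940 FPKM. SMED30019538 stood at 5.196 FPKM in replicate 2 of PIWI-1 low, against 1.92 to 2.34 FPKM. In the library that the labels put in no group, 199 of the 204 members were at 1 FPKM or more. So were 15112 of the 15242 transcripts with at least 2 FPKM at 0hr, so the count does not set the members apart.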

How the results depend on the processing

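No named transcript changed direction under any alternative run, and 421 of 429 repeats on named transcripts kept their side of the threshold. These transcripts were named for large differences without overlap, so the 260 repeats with 1 library left out could not reverse them. The repeats also include the time course contrasts that the rule used. Their stability thus follows in large part from the choice. With 1 library left out, 158 of 166 counts of members stayed within 1.5 times, and under the other alternatives 98 of 109. Leaving out 1 library in turn gave 1 to 3 members higher in X1 against X2, 1 to 3 higher in PIWI-1 high and 3 to 9 higher in PIWI-1 low against PIWI-1 negative, 27 to 79 lower in PIWI-1 high against PIWI-1 low, and 188 to 359 members by the rule. Median-ratio scaling gave 5 members higher in X1 against Xins, 4 in X1 against X2 and 2 in PIWI-1 high against PIWI-1 low. A pseudocount of 0.1 gave 130 lower in X1 against X2 and 88 lower in PIWI-1 high against PIWI-1 low, and no filter gave 30 for the last. A filter at 5 FPKM gave 74 lower in PIWI-1 high and 1 higher in PIWI-1 low against PIWI-1 negative. The replicate block gave 11 higher in PIWI-1 low against PIWI-1 negative and 98 lower in PIWI-1 high against PIWI-1 low, and changed no other count by over 1.5 times. Outside the PIWI-1 sorts no clear pairing by number was seen. Pairs above a correlation of 0.1 were 3 of 9 in the X cells, 1 of 3 in whole animals and 3 of 9 in the time course. So few pairs cannot exclude a pairing. Leaving out sort number 2, chosen after seeing the data, gave 9 higher in PIWI-1 low against PIWI-1 negative. The causes of these shifts were not tested. Depth limits the low points: 13 of the 57 deep members had fewer than 10 reads in all at their lowest time.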

Other observations

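In X2 against Xins 33 of 159 members tested were called higher and 60 lower, with a median log2 difference of -0.52. Of the 209 transcripts that met the same rule with a lowest time of 4 days, 58 of 170 tested were called higher and 29 lower, with a median of 0.33. Of the 223 lowest at 36hr or 48hr, 20 of 164 tested were higher and 71 lower, with a median of -0.79. The differences between these lists were not tested. After irradiation none of either list was called with limma at 2-fold.

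The library that the labels put in no group had a median of 18.7 FPKM over the 204 members, 151 FPKM over the deep and 10.4 FPKM over the shallow ones. Over all transcripts with at least 2 FPKM at 0hr its median was 12.5 FPKM. The FPKM of the members summed to 52966 there.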
